A study of Mus musculus with 24 samples.

Results

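Neurotrophins are secreted growth factors, and the genes described here, apart from Gdnf, encode ligands of this class and the receptors that read or sort them. Gdnf encodes a neurotrophic factor outside this class. The 7 genes were Bdnf, Ntf3 and Gdnf among the ligands, Ntrk2 and Ntrk3 among the receptor tyrosine kinases, Ngfr as the low-affinity receptor and Sort1 as the sorting receptor. They were taken by gene symbol, 7 of 17953 genes in all. The mESC table of 17501 genes held all 7, and 6 were analysed among the 16024 genes of NPC; Ntf3 was not analysed there. Ngfr was put on the list because its level changed between NPC lines, so its NPC values are given as a description with no test.

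The 24 mouse RNA libraries were split evenly between embryonic stem cells (mESC, 12 libraries) and neural progenitor cells (NPC, 12 libraries), and each of 6 Htt genotypes had 2 per cell type. The genotypes were wild type (WT), Htt knockout (KO), and knock-in lines heterozygous for an Htt allele (Hdh) of 20, 50, 92 or 111 CAG repeats, named Q20, Q50, Q92 and Q111. Sample titles gave the third length as 92, while the growth protocol gave 89. The mESC were kept with leukemia inhibitory factor on irradiated mouse fibroblast feeders, and NPC were derived from mESC in serum-free medium and expanded on laminin with FGF and EGF. The labels name no separate clone or culture for the 2 libraries of a group beyond calling them biological samples, and do not give the origin of the WT and KO lines. A difference between genotypes is therefore a difference between lines, and p-values measure the spread between these libraries.

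Neurotrophins are made as precursors, and the mature forms bind Trk receptor tyrosine kinases: BDNF binds TrkB, encoded by Ntrk2, and the Ntf3 product neurotrophin-3 binds chiefly TrkC, encoded by Ntrk3. Ngfr binds all neurotrophins and, together with sortilin (Sort1), binds their uncleaved precursors. Huntingtin is known for promoting Bdnf transcription and the transport of BDNF vesicles in neurons, and loss of cortical BDNF supply to the striatum is a long-studied feature of Huntington's disease. GDNF signals through a different receptor pair, Ret and a Gfra co-receptor, and is named here as a neurotrophic factor outside the neurotrophin family.

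On GRCm38, by a match of identifiers to GENCODE M21, Bdnf lies at chr2:109674700-109727007 on the plus strand, Ntrk2 at chr13:58806569-59133970 on the plus strand, and Ntrk3 at chr7:78175959-78738012 on the minus strand. Ngfr lies at chr11:95568818-95587735 on the minus strand, Sort1 at chr3:108284082-108361511 on the plus strand, Ntf3 at chr6:126101412-126166910 on the minus strand and Gdnf at chr15:7810846-7837575 on the plus strand. All 7 are protein-coding, with 11 annotated transcripts for Bdnf, 10 for Ntrk2, 20 for Ntrk3 and 1 each for Ngfr and Gdnf. The values are sums over a gene, so full-length and truncated TrkB, and the alternative first exons of Bdnf, cannot be told apart. Bdnf, Ntrk2, Ntrk3 and Sort1 overlap annotated genes on the opposite strand, whose reads cannot be told apart without knowing how strand was used. Ntrk2, Ntrk3 and Sort1 also overlap 1, 2 and 1 annotated genes on the same strand, which strand alone does not separate.

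RefSeq promoter windows of GRCm38.p6, 250 bases before to 50 after a start, were matched for 5 of the 7 genes, 13 windows in all and 7 of them from Bdnf. The stretch before the start is shown for 1 Bdnf window, because it holds the CRE-like letters known for calcium-regulated Bdnf transcription, and for Ntrk2 and Ngfr, the members past the filter on low values with the widest range over the NPC libraries (33.5-fold and 22.2-fold from lowest to highest). Capitals mark TCACGTCA in Bdnf and GGGCGG, a GC box, in Ngfr, on either strand (CCGCCC on the other strand).
Bdnf, chr2:109692186-109692435, plus strand: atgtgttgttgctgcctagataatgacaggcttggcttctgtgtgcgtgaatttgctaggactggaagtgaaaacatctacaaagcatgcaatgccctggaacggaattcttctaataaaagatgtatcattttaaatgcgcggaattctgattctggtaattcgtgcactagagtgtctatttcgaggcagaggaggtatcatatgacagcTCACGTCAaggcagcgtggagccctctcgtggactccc
Ntrk2, chr13:58806319-58806568, plus strand: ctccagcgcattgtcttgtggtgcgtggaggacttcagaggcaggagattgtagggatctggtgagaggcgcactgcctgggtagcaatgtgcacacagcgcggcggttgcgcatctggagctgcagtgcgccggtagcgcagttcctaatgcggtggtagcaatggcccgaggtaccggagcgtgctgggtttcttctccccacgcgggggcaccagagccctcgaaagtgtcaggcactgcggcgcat
Ngfr, chr11:95587699-95587948, minus strand: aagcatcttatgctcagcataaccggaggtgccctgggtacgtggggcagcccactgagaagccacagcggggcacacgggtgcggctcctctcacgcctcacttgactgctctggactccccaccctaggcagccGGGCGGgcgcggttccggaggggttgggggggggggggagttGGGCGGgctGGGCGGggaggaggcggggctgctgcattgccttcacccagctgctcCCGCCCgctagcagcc
TCACGTCA began 38 bases before the Bdnf start and was present in 0.441% of 32851 windows. GGGCGG was matched 4 times in the Ngfr window and once in the Ntrk2 window, 35 bases after its start, and was present in 35.7% of windows. The full CRE, TGACGTCA, was in 1.79% of windows and in none of the 13; a match or its lack is a description of these letters only.

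All values are normalised CPM, read counts scaled to library size, as deposited, from 58546211 to 81502284 reads per library in mESC and 48525333 to 118038952 in NPC. Htt itself, the check on the labels, read 124 and 113 CPM in mESC WT but 139 and 68.5 CPM in mESC KO, so the library labelled KO replicate 1 was not lower than WT. In NPC, Htt read 137 and 177 CPM in WT and 100 and 94.9 CPM in KO, a log2 change of -0.67 ± 0.14 (SE, limma adjusted p = 0.0673). Which part of Htt the knockout removes is not given in the sources used here, so reads outside it may remain. Both Q20 NPC libraries stood apart in pluripotency markers: 5 of 8 listed markers were measured in NPC, their sum was 106 to 108 CPM in Q20 and 4.72 to 26.5 CPM in the other 10 libraries, and Pou5f1 read 90.0 and 87.4 CPM in Q20. Neural progenitor markers summed to 4137 to 9685 CPM over the 12 NPC libraries, and pluripotency markers to 1999 to 3790 CPM over the 12 mESC libraries.

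Per length of exon, the members spanned a wide range and the order differed between the cell types. In NPC, Sort1 had the highest mean level at 17.8 CPM per kb, followed by Ntrk2 at 7.72, Ntrk3 at 2.07, Bdnf at 0.931, Ngfr at 0.335 and Gdnf at 0.0308 CPM per kb. In mESC, Ngfr was at 6.51 and Sort1 at 6.13 CPM per kb, while Bdnf was at 0.410, Ntf3 at 0.199, Ntrk2 at 0.184, Ntrk3 at 0.0320 and Gdnf at 0.0255 CPM per kb. The tables of the cell types were scaled separately, so levels were ordered within a cell type and not tested between them. The exon length covers all annotated transcripts of a gene, so a gene with many alternative exons can read low per length.

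**Figure D1:**
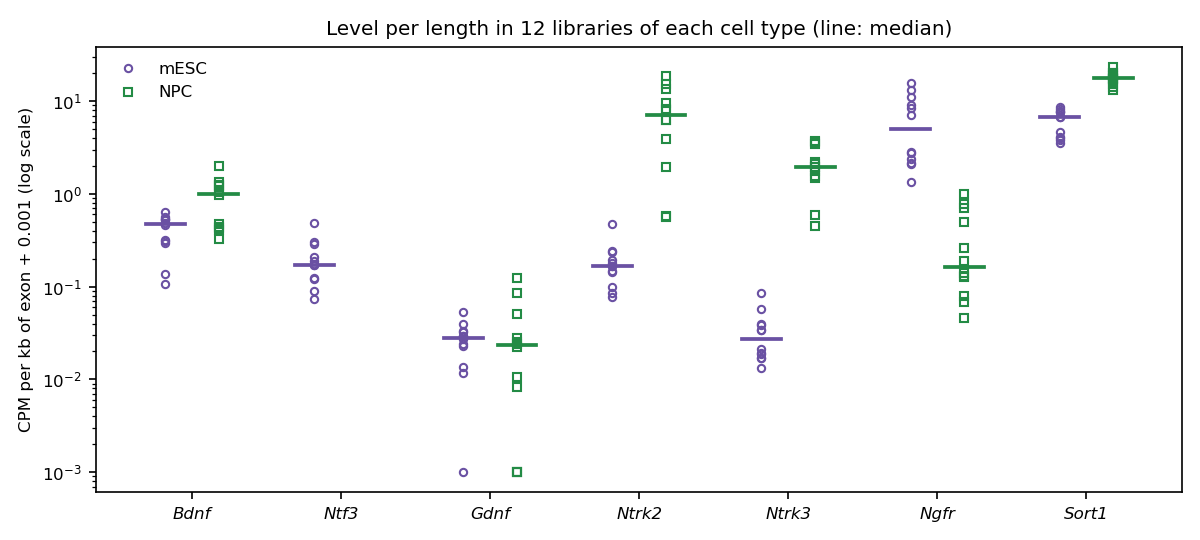
Level of each gene per kb of annotated exon, in normalised CPM per kb plus 0.001 on a log axis, for 12 mESC (circles) and 12 NPC (squares) libraries; the line is the median. Sort1 and Ntrk2 had the highest mean levels in NPC (17.8 and 7.72 CPM per kb), and Ngfr and Sort1 in mESC (6.51 and 6.13 CPM per kb).

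A test was run on genes with 1 CPM or more in at least 2 of the 12 libraries of a table, 13916 genes in mESC and 13206 in NPC, with limma on log2(CPM + 1) and Benjamini-Hochberg adjustment over all of them. Changes below are differences in log2(CPM + 1), smaller than the true change where a gene is low, and a gene was called at an adjusted p under 0.05. Bdnf, Ntrk2, Ntrk3, Ngfr and Sort1 passed the filter in both cell types. Ntf3 reached at most 0.830 CPM and Gdnf at most 0.447 CPM, so neither was tested. With Ngfr left out in NPC, 4 members were tested there and 5 in mESC.

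Among the tested members in NPC, the Trk receptor genes passed the test between single lines: Ntrk2 and Ntrk3 were lowest in the Q92 line, 15.7-fold and 3.81-fold below Q20. Among the 4 knock-in lines, 3 of 4 tested members differed in some pattern by limma's F test (Bdnf adjusted p = 0.0394, Ntrk2 adjusted p = 0.0068, Ntrk3 adjusted p = 0.0142), where 41.0% of all tested genes were called. Sort1 had an adjusted p of 0.0972 in that F test. With Q92 left out as a line, 1 of the 4 was called, Bdnf at an adjusted p of 0.048, while Ntrk2 had 0.42 and Ntrk3 0.432. With the Q20 line left out, the 3 calls were Bdnf, Ntrk2 and Ntrk3 again. Leaving out 1 library at a time kept the Ntrk2 call, but ended that of Ntrk3 without Q92 replicate 1 (adjusted p = 0.0932) or replicate 2 (0.056). It ended the Bdnf call without either library of Q50, Q92 or Q111 (adjusted p = 0.089 to 0.154).

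**Figure D2:**
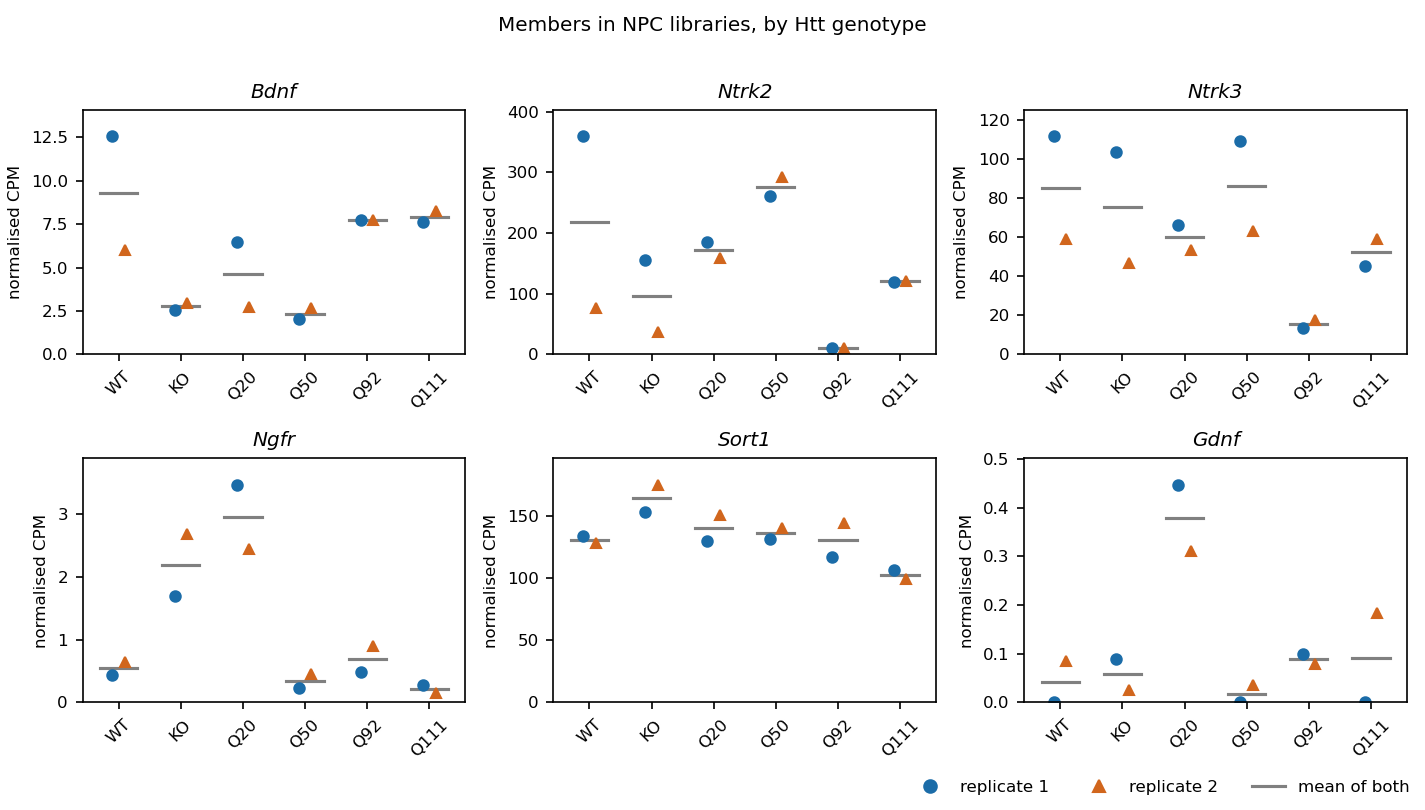
Normalised CPM of 6 members in the 12 NPC libraries by Htt genotype, with a linear axis from 0 for each gene; points are replicates and the grey line is the mean of both. Ntrk2 (10.7 and 11.1 CPM) and Ntrk3 (13.7 and 17.8 CPM) were lowest in Q92, while Ngfr was highest in Q20 (3.47 and 2.43 CPM) and KO (1.69 and 2.68 CPM).

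Bdnf, the ligand of TrkB, was low in all NPC lines. Its NPC level was 12.6 and 6.04 CPM in WT, 2.56 and 2.97 CPM in KO, 6.49 and 2.74 CPM in Q20, 2.01 and 2.68 CPM in Q50, 7.74 and 7.74 CPM in Q92, and 7.64 and 8.25 CPM in Q111. KO and Q50 had the lowest means, and neither group overlapped WT, Q92 or Q111. In order of the means, WT (9.30 ± 4.61, SD, n = 2), Q111 and Q92 overlapped their neighbours, Q92 (7.74 ± 0.0034) and Q20 (4.61 ± 2.64) lay apart, and Q20, KO (2.77 ± 0.291) and Q50 (2.35 ± 0.474) overlapped.

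Bdnf was 3.36-fold lower in KO than in WT by the means, a log2 change of -1.38 ± 0.38 (SE). This did not pass the test across all genes (limma adjusted p = 0.150, unadjusted p = 0.00606). None of 4 members was called in NPC KO against WT, with 1 at an unadjusted p under 0.05 and none by edgeR, where 1.42% of all genes were called (0.878% higher, 0.545% lower). Without WT replicate 1 the difference was 2.18-fold (-0.90). Without WT replicate 2, the lower of both WT values, it was 4.54-fold (-1.85). Over 12 alternatives the Bdnf change ran from -1.85 to -0.84. The knockout effect on Bdnf in NPC minus that in mESC was -1.59 ± 0.61 as a tested difference, with an unadjusted p of 0.0204 and an adjusted p of 0.796.

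Across the knock-in lines, Bdnf in NPC was 3.30-fold higher in Q92 and 3.39-fold higher in Q111 than in Q50. The trend over the 4 CAG lengths, as the change over the 91 repeats between 20 and 111, was 1.11 ± 0.46 (SE, limma adjusted p = 0.119, unadjusted p = 0.0413). None of the 4 members was called for this trend by limma or edgeR, 2 had an unadjusted p under 0.05, and 22.0% of all genes were called (12.0% rising, 10.1% falling). With 1 mean value per line in place of 2 libraries, limma called 0 of 13206 genes for the trend, with 1831 at an unadjusted p under 0.05. Bdnf was called without Q20 replicate 1 (1.71, adjusted p = 0.0376) and without the Q20 line (2.27, adjusted p = 0.0226). With Q20 kept, the lowest line was Q50 and not Q20, so the level did not follow length in order. With WT as the reference, the Bdnf change in Q50 was -1.55 ± 0.38 and was called (adjusted p = 0.0479).

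In mESC, Bdnf read 0.841 and 1.84 CPM in WT, 0.659 and 3.24 in KO, 4.00 and 3.33 in Q20, 1.96 and 3.30 in Q50, 1.94 and 3.50 in Q92, and 3.05 and 2.89 in Q111. Every knock-in library lay above both WT libraries, and KO spanned both. The Q20 mean was 2.74-fold above WT (1.99-fold without WT replicate 1 and 4.36-fold without WT replicate 2). The change of 1.03 ± 0.46 was not called (adjusted p = 0.414, and 0.105 with the replicate number as a block). Summed markers of other cells differed in the same direction: the mesenchyme list (5 genes including Acta2 and Tagln) summed to 13.4 to 17.8 CPM in WT and KO and 66.6 to 297 CPM in the knock-in mESC libraries, and the feeder fibroblast list to 19.3 to 31.7 against 52.0 to 93.4 CPM. Not every marker followed its sum. Pdgfrb and Myl9 of the mesenchyme list, and Col3a1, Thy1 and Fbn1 of the feeder list, overlapped between these libraries. Thy1 was lower in Q20 (7.53 and 4.455 CPM) than in WT (9.66 and 11.3 CPM). The part of such cells in the Bdnf values was not tested, and in bulk RNA a change in the number of cells of a type and a change in RNA per cell cannot be told apart.

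Ntf3, which encodes neurotrophin-3, was measured in mESC only, at 0.124 to 0.830 CPM. The highest value was in Q20 replicate 1 (0.830 CPM), against 0.209 CPM in the other Q20 library, and the groups overlapped WT except Q50 (0.360 and 0.323 CPM) and Q92 (0.523 and 0.488 CPM). Gdnf, the ligand for Ret and its co-receptors, ran from 0 to 0.194 CPM in mESC. In NPC, Gdnf read 0.447 and 0.311 CPM in Q20, from 36 and 29 reads, and at most 0.184 CPM in the other 10 libraries. The Q20 libraries thus did not overlap any other line, though all lie below the filter. Gdnf had 0 reads in WT replicate 1, Q50 replicate 1 and Q111 replicate 1 of NPC, which allows up to 0.0526, 0.058 and 0.0406 CPM (3 reads), and in WT replicate 2 of mESC, which allows up to 0.0531 CPM. These limits cover counting error only.

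Ntrk2 encodes TrkB, whose truncated form is known to prevail in astrocytes and whose full-length form prevails in neurons. Its NPC level was 359 and 76.1 CPM in WT, 155 and 37.3 in KO, 186 and 158 in Q20, 261 and 292 in Q50, 10.7 and 11.1 in Q92, and 120 and 122 in Q111. Both Q92 libraries were the lowest of the 12 and overlapped no group. Replicates were close in the knock-in lines, and differed over a wide range in WT and KO. By the means, the order was Q50 (276 ± 21.6, SD, n = 2), WT (218 ± 200), Q20 (172 ± 19.7), Q111 (121 ± 1.26), KO (96.0 ± 83.0) and Q92 (10.9 ± 0.293), with gaps between Q20 and Q111 and between KO and Q92 and overlap at the other steps.

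Against Q20, Ntrk2 fell by 3.85 ± 0.75 in Q92 on the log2 scale (SE, limma adjusted p = 0.00713). This call held in all 13 alternatives tried, with changes from -3.97 to -3.47 and adjusted p from 0.00166 to 0.0498. Against WT the change in Q92 was -3.80 ± 0.75 (adjusted p = 0.0203). The Q92 mean was 19.9-fold below that of WT, 32.8-fold with WT replicate 1 alone and 6.95-fold with WT replicate 2 alone. In Q92 against Q20, 2 of 4 members were called, both lower, where 25.8% of all genes were called (9.88% higher, 15.9% lower).

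Ntrk2 in Q50, Q111 and KO was not called against its reference. Its change was 0.68 ± 0.75 in Q50 against Q20 (adjusted p = 0.591), -0.50 ± 0.75 in Q111 against Q20 (adjusted p = 0.638) and -1.11 ± 0.75 in KO against WT (adjusted p = 0.619). Within a replicate number, KO against WT differed by -1.21 in replicate 1 and -1.01 in replicate 2. Differences between replicates correlated over genes between WT and KO (r = 0.467), and the fit of KO against WT did not pair these libraries. None of 4 members was called in Q50 against Q20 by limma or edgeR, none at an unadjusted p under 0.05, where 18.8% of all genes were called (8.05% higher, 10.7% lower). With a spread estimated from the 4 libraries compared alone, Ntrk2 was called in Q50 against Q20 (adjusted p = 0.024) and in Q111 against Q20 (adjusted p = 0.022). That fit called 3927 and 6712 of all 13206 genes in these comparisons, more than the main fit (2478 and 3743).

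Ntrk3 encodes TrkC, the receptor of neurotrophin-3. Its NPC level was 112 and 59.1 CPM in WT, 104 and 46.9 in KO, 66.3 and 53.6 in Q20, 109 and 63.4 in Q50, 13.7 and 17.8 in Q92, and 45.2 and 59.4 in Q111. As for Ntrk2, both Q92 libraries lay below the other 10, while each of the other groups overlapped its neighbour in the order of means. Ntrk3 fell by 1.87 ± 0.44 on the log2 scale in Q92 against Q20 (SE, limma adjusted p = 0.0171), and its change in Q92 against WT was -2.31 ± 0.44 (adjusted p = 0.0185). The call against Q20 was lost when any of the 4 libraries compared was left out: adjusted p was 0.101 and 0.0587 without Q20 replicates 1 and 2, and 0.102 and 0.0558 without Q92 replicates 1 and 2.

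**Figure D3:**
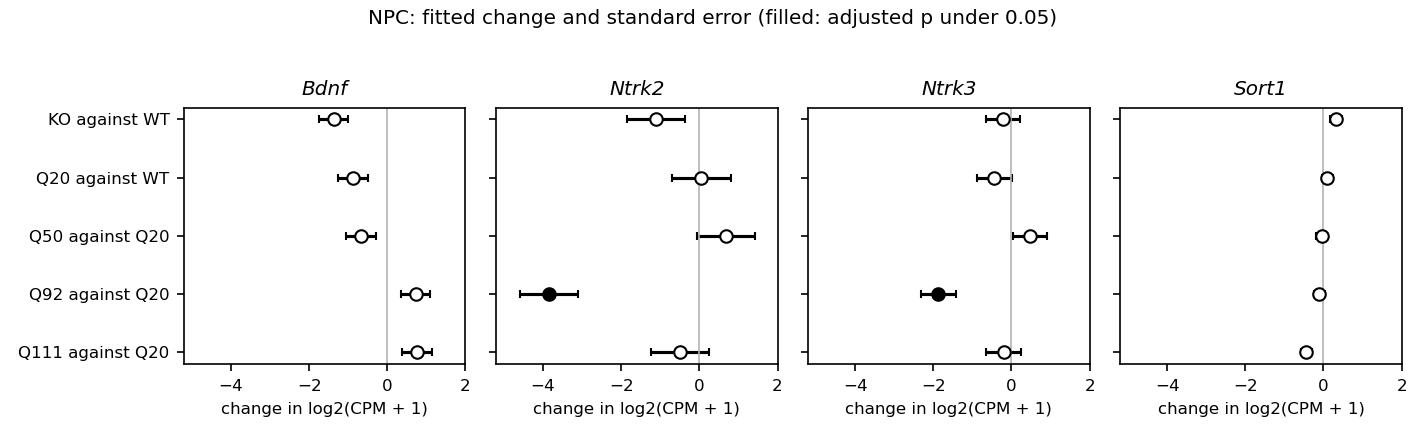
Fitted change in log2(CPM + 1) with its standard error for Bdnf, Ntrk2, Ntrk3 and Sort1 in 5 NPC comparisons (limma, 2 libraries per group); filled points have an adjusted p under 0.05. The filled points are Ntrk2 (-3.85) and Ntrk3 (-1.87) in Q92 against Q20.

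Summed astrocyte markers were low in the same libraries. All 5 listed astrocyte markers (Gfap, Aqp4, S100b, Aldh1l1, Slc1a2) were measured in NPC, and their sum was 22.1 to 28.1 CPM in Q92, against 68.1 to 249 in KO, 177 to 182 in Q111, 168 to 717 in WT, 326 to 551 in Q50 and 940 to 1058 in Q20. None of the 5 was at 0 in Q92, where Gfap read 0.182 and 0.0938 CPM and Slc1a2, a glutamate transporter, 13.3 and 14.6 CPM. Aqp4, a water channel, was not lowest in Q92 (4.28 and 7.30 CPM), with 2.80 and 2.92 CPM in Q111 and 4.40 CPM in KO replicate 2. In WT and KO, replicate 1 had both the higher sum and the higher Ntrk2 and Ntrk3. Q20, with the highest sum, had neither the highest Ntrk2 nor the highest Ntrk3. The part of astrocyte-like cells in the Trk receptor levels was not tested.

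**Figure D4:**
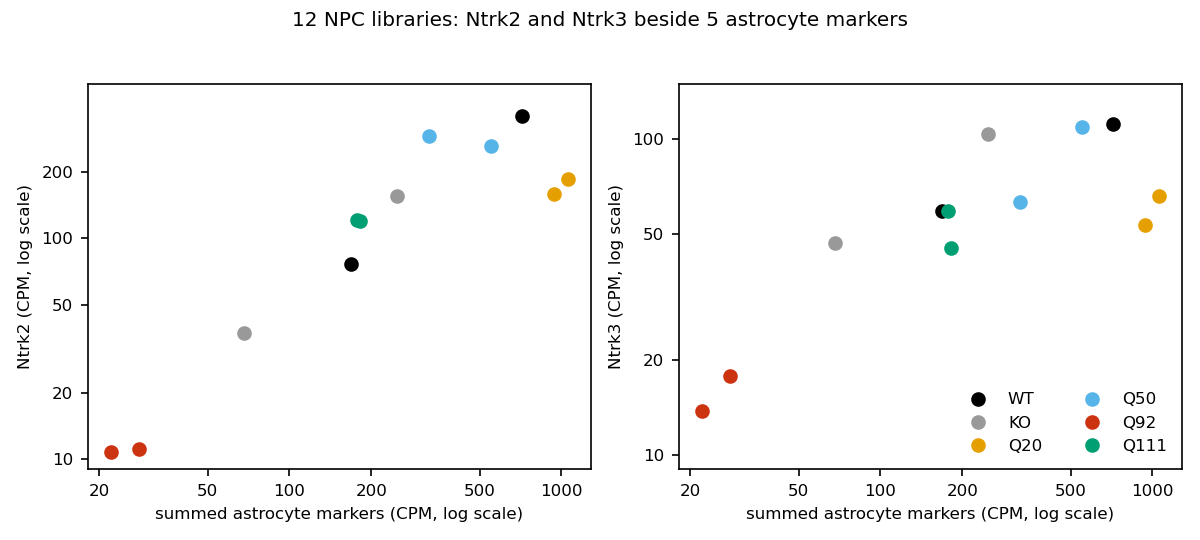
Ntrk2 (left) and Ntrk3 (right) in normalised CPM against the summed CPM of 5 astrocyte markers, log axes, 1 point per NPC library coloured by genotype. Both Q92 libraries lie at the lower left (sum 22.1 to 28.1 CPM), and both Q20 libraries at the right (940 to 1058 CPM) below WT replicate 1 and Q50 in Ntrk2.

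In mESC both Trk receptor genes were near the filter. Ntrk2 read 1.48 and 1.91 CPM in WT, 3.23 and 1.63 in KO, 3.45 and 9.18 in Q20, 2.79 and 2.72 in Q50, 3.70 and 4.70 in Q92, and 3.22 and 4.55 in Q111. All 8 knock-in libraries lay above both WT libraries, and the highest single value was Q20 replicate 2. The Q20 mean was 3.72-fold above WT, a change of 1.32 ± 0.41 that was not called (limma adjusted p = 0.222, and 0.0661 with the replicate number as a block). Without Q20 replicate 2 the difference was 2.03-fold, a change of 0.73 (adjusted p = 0.655). Neural progenitor markers differed in the same direction, summing to 141 to 211 CPM in WT and KO and 233 to 562 CPM in the knock-in mESC libraries. Between the Q20 libraries, Fabp7, a fatty acid binding protein of radial glia, read 0.326 CPM in replicate 1 and 69.3 CPM in replicate 2. Of the same list, Nes (158 and 123 CPM) and Sox1 (1.90 and 1.58 CPM) were lower in replicate 2. The other measured markers of the list were higher there. The part of such cells in the Ntrk2 values was not tested. Ntrk3 ranged from 0.371 to 2.57 CPM, and the 2 Q20 libraries (0.608 and 2.57 CPM) spanned most of that range.

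Ngfr encodes the low-affinity neurotrophin receptor, a marker of neural crest and Schwann cells that is also found on stem cells of several tissues. In NPC it read 0.438 and 0.650 CPM in WT, 1.69 and 2.68 in KO, 3.47 and 2.43 in Q20, 0.232 and 0.447 in Q50, 0.479 and 0.891 in Q92, and 0.271 and 0.156 in Q111. Q20 and KO overlapped each other, and all 4 of their libraries lay above the other 8. The Q20 mean was 5.42-fold above WT and 13.8-fold above Q111, and the KO mean was 4.02-fold above WT. These values rest on 11 to 304 reads per library. Of 9 listed neural crest and Schwann cell markers, 8 were measured in NPC. Their sum was 105 to 109 CPM in Q20, 16.2 to 25.0 in KO and 18.2 to 57.2 in WT. It was 34.6 to 34.9 CPM in Q111, 10.1 to 13.8 in Q50 and 5.64 to 6.04 in Q92. KO, high in Ngfr, thus overlapped WT in this sum and lay below Q111. Sox10, a transcription factor of these cells, read 3.52 and 8.60 CPM in Q20, 3.22 and 1.47 CPM in KO and 0.200 to 15.8 CPM in the other lines. Erbb3, a neuregulin receptor, read 4.40 and 4.67 CPM in Q20, 1.09 and 0.979 CPM in KO and 0.247 to 1.11 CPM in the other lines. None of the 8 was at 0 in Q20, while Tfap2b, Pax3 and Snai2 were each at 0 in at least 1 library of the other lines. The part of such cells, and of the Pou5f1 signal in Q20, in the Ngfr level was not tested.

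In mESC, Ngfr split by replicate number and not by genotype. Replicate 1 read 9.43 CPM in WT, 7.24 in KO, 7.50 in Q20, 9.74 in Q50, 8.13 in Q92 and 4.59 in Q111, and replicate 2 read 38.4, 31.2, 53.7, 24.6, 45.5 and 29.1 CPM in the same order. All 6 libraries numbered 2 lay above all 6 numbered 1. Within a number, Ngfr changed by at most 1.10 on the log2 scale between the pairs of genotypes compared (Q50 against Q20 in replicate 2, -1.10), and the genotype changes over both numbers had an SE of 1.27. Neural crest markers summed to 35.0 to 57.5 CPM in replicate 1 and 46.1 to 91.3 CPM in replicate 2, and neural progenitor markers to 141 to 349 against 197 to 562 CPM, ranges that overlap. Their part in the Ngfr split was not tested, and what the number marks is not given in the labels.

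**Figure D5:**
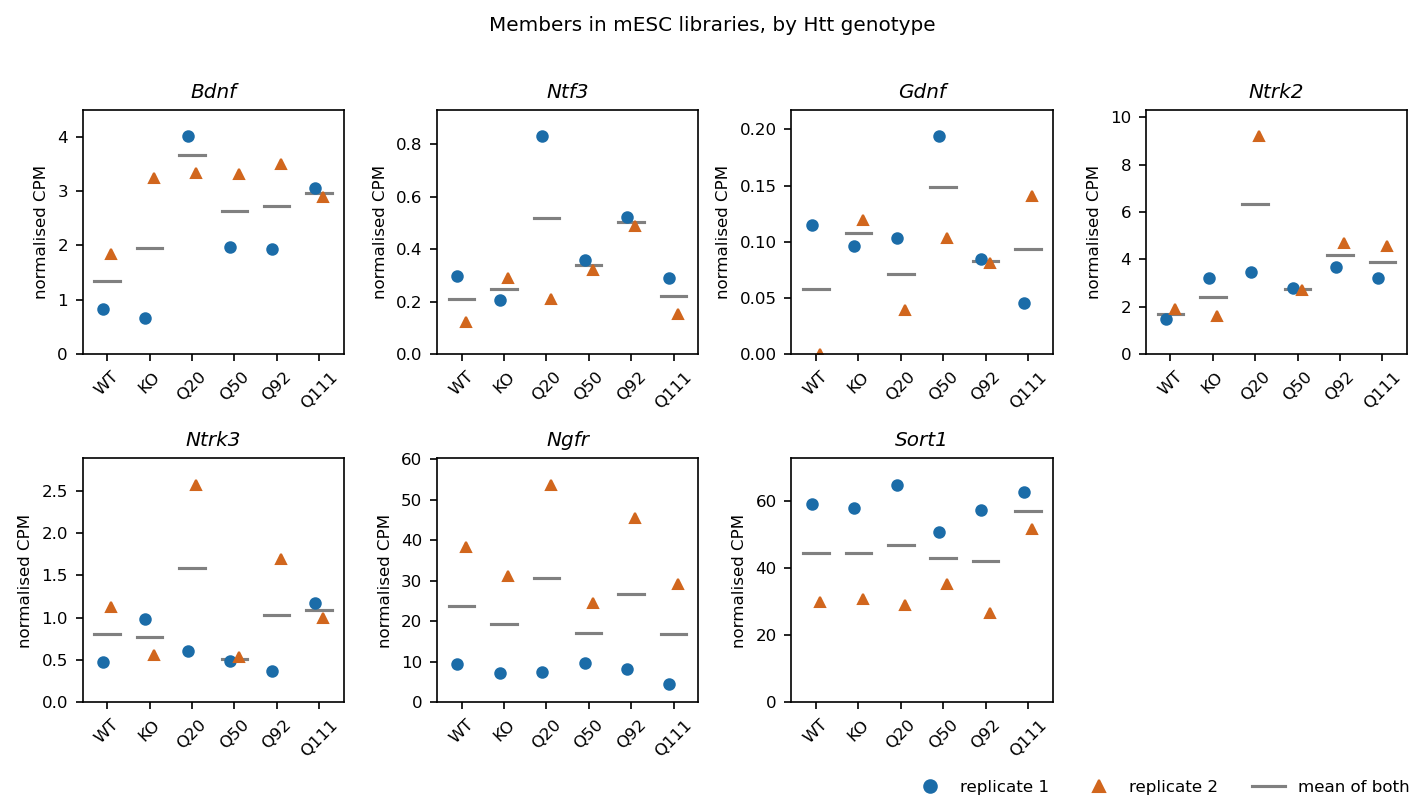
Normalised CPM of the 7 members in the 12 mESC libraries by Htt genotype, linear axes from 0; circles are replicate 1, triangles replicate 2 and grey lines the mean of both. Ngfr (4.59 to 9.74 against 24.6 to 53.7 CPM) and Sort1 (50.9 to 64.9 against 26.8 to 51.7 CPM) differed by replicate number in opposite directions.

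Sort1 encodes sortilin, a sorting receptor that takes part in the trafficking of BDNF and forms a receptor for neurotrophin precursors with the Ngfr product. It had the narrowest spread of the members in NPC: 134 and 128 CPM in WT, 153 and 176 in KO, 130 and 151 in Q20, 132 and 141 in Q50, 117 and 145 in Q92, and 106 and 99.8 in Q111. Both Q111 libraries were the lowest and both KO libraries the highest of the 12, and the other groups overlapped. The Q20 mean was 1.36-fold above Q111, a change of -0.44 ± 0.14 in Q111 (SE, limma adjusted p = 0.0504, unadjusted p = 0.0144).

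None of 4 members was called in Q111 against Q20 by limma or edgeR, 1 at an unadjusted p under 0.05, where 28.3% of all genes were called (12.2% higher, 16.1% lower). Sort1 was called there in 4 of 13 alternatives, with adjusted p from 0.0101 to 0.234. Its change was 0.32 ± 0.14 in KO against WT (adjusted p = 0.393) and -0.37 ± 0.15 over the CAG lengths (adjusted p = 0.118). In Q20 against WT, none of 4 members was called by limma or edgeR, with Bdnf (-0.88 ± 0.38, adjusted p = 0.180) the 1 at an unadjusted p under 0.05, where 14.5% of all genes were called (9.97% higher, 4.57% lower). Without WT replicate 2 the Bdnf change there was -1.36.

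In mESC, Sort1 was higher in replicate 1 than in replicate 2 of every genotype, with 59.1 and 30.0 CPM in WT, 58.0 and 31.0 in KO, 64.9 and 29.0 in Q20, 50.9 and 35.4 in Q50, 57.4 and 26.8 in Q92, and 62.6 and 51.7 in Q111. The libraries numbered 2 overlapped those numbered 1 only through Q111. None of the 5 tested members was called in any of the 7 mESC comparisons by limma or edgeR, and 1, Ntrk2 in Q20 against WT, had an unadjusted p under 0.05. The share of all genes called there was 0.0144% in KO against WT, 0.323% in Q20 against WT, 0.00719% in Q50 against Q20, 0.00719% in Q92 against Q20, 0.0% in Q111 against Q20, 0.0719% in the F test and 0.0% for the trend. With the replicate number as a block the shares were 0.115%, 10.6%, 0.984%, 0.46%, 0.0575%, 1.6% and 0.0% in the same order, and still no member was called.

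The difference between NPC and mESC effects was tested for the 4 members as an interaction by limma over 12321 genes tested in both. None was called for KO against WT, where 0.0406% of genes were called, and none for the CAG trend, where 4.86% were (0.0% with 1 mean value per line); edgeR was not run on these. Bdnf was the 1 member with an unadjusted p under 0.05 in each, and its trend was 1.31 ± 0.55 higher in NPC than in mESC (unadjusted p = 0.0311, adjusted p = 0.193). The same difference was -2.0 ± 1.5 in Ntrk2 (adjusted p = 0.478). It was -1.03 ± 0.89 in Ntrk3 (adjusted p = 0.557) and -0.61 ± 0.46 in Sort1 (adjusted p = 0.491).

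Of 75 other genes of neurotrophin and GDNF signalling, listed by role, 64 were tested in NPC and 66 in mESC. In NPC, 29 of 64 differed among the knock-in lines by the F test, beside 41.0% of all genes: 1 of 3 ligands, 4 of 6 receptors and co-receptors, 4 of 4 sortilin relatives, 5 of 9 processing enzymes, 3 of 5 transport genes, 10 of 27 signalling genes and 2 of 10 response genes. Called against Q20 were 16 in Q50 (8 higher, 8 lower; 18.8% of all genes), 23 in Q92 (12 higher, 11 lower; 25.8% of all genes) and 21 in Q111 (8 higher, 13 lower; 28.3% of all genes). The median change of the list was 0.11, 0.11 and -0.03, beside 0.00, 0.06 and 0.03 over all genes. In Q20 against WT, 15 were called (6 higher, 9 lower), beside 14.5% of all genes, with a list median of -0.17 beside -0.02. For the CAG trend, 10 were called (3 rising, 7 falling), beside 22.0% of all genes, with a list median of 0.02 beside 0.04, and 0 with 1 mean value per line. In mESC none of the 66 was called in any of the 7 comparisons. With the replicate number as a block, 7 of 66 were called in Q20 against WT (5 higher, 2 lower), beside 10.6% of all genes, among them Vgf (1.28 ± 0.20, adjusted p = 0.0131). The block also called Vgf and Dusp6 in Q50 against Q20, and Dusp6 and Pcsk6 in the F test; these 3 genes were picked after their values were seen.

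Among ligands of the list, Mdk, the growth factor midkine, was high in Q20 NPC alone (35.9 and 32.0 CPM), with 7.95 and 6.63 CPM in Q50, 3.88 and 2.79 in KO and 0.614 to 3.41 CPM in the rest. It rose in Q20 against WT by 4.19 ± 0.22 (limma adjusted p = 1.01e-05) and fell by 3.80 ± 0.36 over the CAG lengths (adjusted p = 0.000838, and 0.295 with 1 mean value per line). In KO against WT, 2 of 64 genes were called, beside 1.42% of all genes: Mdk rose by 1.17 ± 0.22 (adjusted p = 0.0499), and Ptn, its relative pleiotrophin, fell by 1.76 ± 0.30 (adjusted p = 0.0347). Ptn read 2845 and 1645 CPM in WT and 757 and 541 CPM in KO, with no overlap. Both calls were lost with the replicate number as a block (Mdk adjusted p = 0.0605, Ptn adjusted p = 0.0588) and without either KO library (Mdk 0.167 and 0.0731, Ptn 0.0674 and 0.124), that of Ptn also without WT replicate 1 (0.0866), and that of Mdk also by edgeR (0.0685). The list median there was -0.04, beside 0.03 over all genes.

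The 4 sortilin relatives each differed among the knock-in lines, where 41.0% of all genes did, and 0 of 4 were called for the CAG trend, where 22.0% of all genes were. Sorl1, a sorting receptor of the same domain family, read 35.5 and 35.0 CPM in Q50, 16.5 and 16.2 in Q20, 8.47 and 7.33 in Q111 and 2.42 to 5.25 CPM in the other lines, and fell by 1.99 ± 0.23 in Q92 against Q20 (adjusted p = 0.000518). Sorcs2, which pairs with the Ngfr product as a receptor for pro-BDNF, was lowest in Q111 (10.6 and 11.3 CPM) and between 46.9 and 90.2 CPM in every other line. It fell by 2.33 ± 0.16 in Q111 against Q20 (adjusted p = 3.83e-05), and its F test call was lost without the Q111 line (adjusted p = 0.175). Pcsk5, a proprotein convertase, was lowest in Q111 (0.650 and 0.822 CPM) and highest in Q92 (13.7 and 12.3 CPM).

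Among transport genes, the kinesin heavy chain Kif5a read 31.5 and 27.6 CPM in Q20, 7.14 and 6.68 in Q50, 3.80 and 3.58 in Q92 and 2.82 and 3.44 in Q111, a change over CAG length of -2.74 ± 0.41 (adjusted p = 0.0038). Kif5c was at 104 and 103 CPM in Q20 and at 10.8 to 36.1 CPM in the other 10 libraries, and fell by 2.23 ± 0.28 in Q92 against Q20 (adjusted p = 0.000761). The adaptor Shc3 rose in Q50 against Q20 by 1.34 ± 0.17 (adjusted p = 0.000936), with 108 and 109 CPM against 40.7 and 43.9 CPM. Shc1 and Shc2, adaptors downstream of Trk receptors, changed by -1.48 ± 0.22 (adjusted p = 0.00376) and -1.60 ± 0.30 (adjusted p = 0.0093) over CAG length. Without the Q20 line neither was called (adjusted p = 0.0615 and 0.100), Shc2 was not called without the Q111 line (0.0597), and with 1 mean value per line none of the trends in Kif5a, Shc1 and Shc2 was (adjusted p = 0.295, 0.295 and 0.337). Vgf, a gene known to respond to neurotrophins, read 2.34 and 2.29 CPM in Q20 and at most 0.826 CPM elsewhere, and rose in Q20 against WT by 1.58 ± 0.15 (adjusted p = 0.000175). Q20, the reference of 3 of these comparisons, is the line with Pou5f1 at 90.0 and 87.4 CPM, and its part in them was not tested.

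The genes whose pattern over the 12 NPC libraries was most like a member's were ranked by Pearson's r of log2(CPM + 1), as a description over libraries that share lines. For Ntrk2 they included Pag1 (r = 0.972) and Myo6 (r = 0.962), and for Ntrk3 Slc38a3 (r = 0.964), Rlbp1 (r = 0.961) and Cspg5 (r = 0.958). For Bdnf they were Rtn1 (r = 0.885), Sv2c (r = 0.862) and Bsg (r = 0.843), and for Sort1 Zbtb5 (r = 0.917), Blvrb (r = 0.885) and Tmbim1 (r = 0.881). For Ngfr they included Eno3 (r = 0.894) and Cers4 (r = 0.892). In mESC, Ngfr was most like Rab1b (r = 0.983), Arhgap1 (r = 0.975) and Pi4kb (r = 0.970), and Sort1 like Nmt2 (r = 0.945), Ldb3 (r = 0.945) and Ezh1 (r = 0.941), over libraries that split by replicate number. Bdnf in mESC was most like Hhip (r = 0.945), and Ntrk2 like Sdc3 (r = 0.942), Ptn (r = 0.937) and Plat (r = 0.922).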

How the data were processed

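Each cell type has 1 table, deposited by the authors under the name CPM, whose values are a normalised signal per gene. CASAVA 1.8, STAR and GRCm38.p6 are named per the submitters' processing notes, with no role; the counting tool, its use of strand and the gene annotation are not given in the sources used here. Columns total 900342 to 1080734 and 100% of values were whole multiples of a step (tolerance 0.01), which gave back the reads; TMM factors from these matched the scaling. The mESC table had 17505 entries for 17501 genes and that of NPC 16025 for 16024; of repeated identifiers the first was kept. The number of per-sample columns left unmapped was 0.

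Genes with at least 1 CPM in 2 libraries entered limma 3.58.1 as log2(CPM + 1) in R 4.3.3 (6 group means, variance trend, two-sided, Benjamini-Hochberg over all tested genes). edgeR 4.0.16 on the recovered reads, and leaving out each knock-in line, were added after seeing the data. Comparisons with Q20 share its libraries, and those with WT share WT. The scripts were tested on simulated data.

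Named were all 7 members; per member the 3 non-members of at least 5 CPM with the highest r; and per comparison up to 4 called genes of the list of 75 with the smallest adjusted p; 3 genes, 2 of them among the genes with the highest r and 1 among the cell markers, are not reported here. Members and lists were chosen with earlier results of these data known. Replicate numbers paired the mESC libraries: in all 15 pairs of genotypes the differences between replicates correlated over genes (0.250 to 0.547), and the first principal component (31.0%) separated the numbers. In NPC 3 of 15 pairs exceeded 0.1 (WT with KO 0.467, WT with Q50 0.170, KO with Q50 0.106), so the numbers were not taken to pair the NPC libraries as a whole. The main p-values of NPC KO against WT therefore leave out the pairing of WT with KO.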

Additional observations from a re-analysis of the deposited data

How the results depend on the processing

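Over 16 comparisons and 244 alternatives, the number of members called equalled the reported one in 211, differed within 1.5 times in 10 and by more in 23. The signed changes followed were Bdnf in NPC KO against WT, Ntrk2 and Ntrk3 in Q92 against Q20 and Sort1 in Q111 against Q20. Also followed were the NPC trend in Bdnf and Sort1, and mESC Q20 against WT in Bdnf and Ntrk2. None of their 115 alternatives reversed the sign. Other changes did reverse with WT as the reference, among them Bdnf in NPC Q92 (0.72 to -0.16) and Q111 (0.76 to -0.13). In mESC the count was 0 in all 103, leave-one-out and replicate block included. In NPC, the count with 1 library left out ran from 0 to 1 in KO against WT, 0 to 1 in Q20 against WT, 1 to 1 in Q92 against Q20 (Ntrk2), 1 to 3 in the F test and 0 to 1 in the trend; a lone library was assumed to vary like the other groups. With no filter the count was 1 in Q20 against WT, 1 in Q50 against Q20 and 1 in Q111 against Q20, each Gdnf, which only then was tested, and with Gdnf added 3 in Q92 against Q20 and 4 in the F test. Fitted on the 4 libraries compared, it was 1 in Q50 against Q20, beside 3927 of all 13206 genes. It was 2 in Q111 against Q20 (Ntrk2 and Sort1), beside 6712 of all 13206 genes. With WT as the reference it was 1 for Q50 (Bdnf). In Q111 against Q20 it was 1 (Sort1) with a pseudocount of 5 and 1 with quantile normalisation. The trend gave 2 with quantile normalisation (Bdnf and Sort1), 1 without the Q20 line (Bdnf), 1 without the Q92 line (Sort1) and 1 without the Q111 line (Ntrk2, -5.19), and the F test 1 without the Q92 line (Bdnf). The cause of these moves was not tested. In NPC the replicate block moved 1 count: Q111 against Q20 went to 1, Sort1 at an adjusted p of 0.0447. In KO against WT it left Bdnf uncalled (-1.38, adjusted p = 0.151); it changed no other call of a member. The Bdnf call in the F test held in 10 of 19 alternatives and was lost when any library of Q50, Q92 or Q111 was left out (adjusted p 0.089 to 0.154). Replacing 92 by 89 repeats changed no call of a member, while the NPC trend called 11 of the 64 other listed genes in place of 10. With 2 libraries per group, low genes such as Gdnf, Ntf3 and Ngfr in NPC rest on few reads, and the CAG length differs between 4 lines only.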
